A study of Rattus norvegicus with 12 samples.

Results

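The 38 genes described here code for proteins of the cell cycle and of DNA replication, in rat cortical cultures given factors released by human glial progenitor cells (GPCs). They were chosen by name, as cyclins, cyclin-dependent kinases (CDKs) and their inhibitors, replication genes, genes of nucleotide supply, mitotic genes and polo-like kinases. The rule for a member uses no measured value, but the genes were chosen with earlier results of these data known. Of the 38 names, 37 had a row among the 28111 gene names of the files, and each had 1 row. The level of the mitotic cyclin Ccnb2 was not analysed here, while its promoter is among those searched below. The list was read in 4 blocks: 8 genes of the G1 phase with the CDK inhibitors, 17 genes of S phase and its entry, 11 genes of G2 and M phase, and the 2 polo-like kinases Plk2 and Plk3, which are inducible in neurons.

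The 12 libraries came from primary neuroglial cultures of the cerebral cortex of rat pups (postnatal day 0 by the labels and a little older by the methods, which name the Wistar strain), with 3 libraries for each of 4 conditions. All cultures were at 10 days in vitro, and RNA was taken 4 h after the addition. The intact control (IC) received no GPC product. The EV group received extracellular vesicles of GPCs at 10 µg/mL. A further group, written P3_100 in this text, received the proteins of 3–100 kDa from the GPC-conditioned medium at 15 µg/mL, and the TS group received the total secretome at 45 µg/mL. Doses therefore differed between the treated groups and were not matched. No transgene or deletion is named for the rats, and the methods of the study state that cytosine arabinoside, which blocks DNA synthesis, had been added to every culture some days earlier to limit the growth of dividing glia. All 4 conditions share that treatment. Every value is a bulk value, so fewer cells of a type and less RNA per cell cannot be told apart.

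As background, D-type cyclins with CDK4 or CDK6 drive a cell through G1 by releasing E2F factors from the retinoblastoma protein, and E2F factors then switch on the genes of replication. Cyclin E with CDK2 starts S phase, the MCM helicase is loaded on replication origins by CDC6 and CDT1, and cyclins A and B with CDK1 drive G2 and mitosis. Mature neurons have left the cycle, so in cortical cultures the S and M phase genes mostly report on dividing glia and their precursors, whereas Ccnd1, Cdkn1a, Plk2 and Plk3 are also known as genes that respond quickly to growth factors, stress or synaptic activity.

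The promoter sequences of 6 genes are shown because the results below describe the S, G2 and M phase genes apart from Plk2 and Plk3. RefSeq entries (build GRCr8) were matched by symbol for 28 of the 38 genes. The letters searched on both strands in the 250 bases before the start site were TTTNGCGC for E2F, TTTGAA for the cell cycle homology region (CHR), CCAAT for the CCAAT box, TGACGTCA for the cAMP response element (CRE), TGACG for its shorter form, which lies inside the CRE, and TGANTCA for AP-1. GGGCGG, the GC box, was searched as well. Capitals mark matches of E2F, CHR and CCAAT letters in the first 4 sequences, of the shorter CRE form in Plk3 and of the CRE in Plk2. Each run reads 5′ to 3′ on the gene's strand and ends at the last base before the start site. The windows were chr13:42404353-42404502 (minus strand), chr12:22163179-22163328 (minus), chr20:19265143-19265292 (plus), chr10:84473094-84473193 (minus), chr5:135848901-135849050 (minus) and chr2:43702436-43702535 (plus).
Mcm6: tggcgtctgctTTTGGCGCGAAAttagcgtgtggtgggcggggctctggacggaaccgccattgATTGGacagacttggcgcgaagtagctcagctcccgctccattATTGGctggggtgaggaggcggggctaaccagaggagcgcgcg
Mcm7: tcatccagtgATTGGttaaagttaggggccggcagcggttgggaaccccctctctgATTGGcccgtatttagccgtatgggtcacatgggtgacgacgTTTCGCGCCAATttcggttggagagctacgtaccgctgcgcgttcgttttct
Cdk1: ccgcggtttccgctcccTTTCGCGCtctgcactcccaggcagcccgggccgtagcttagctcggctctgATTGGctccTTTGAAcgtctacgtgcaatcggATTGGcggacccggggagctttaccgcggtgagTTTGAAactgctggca
Top2a: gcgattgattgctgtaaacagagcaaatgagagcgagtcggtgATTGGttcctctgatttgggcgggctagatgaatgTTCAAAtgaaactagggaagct
Plk3: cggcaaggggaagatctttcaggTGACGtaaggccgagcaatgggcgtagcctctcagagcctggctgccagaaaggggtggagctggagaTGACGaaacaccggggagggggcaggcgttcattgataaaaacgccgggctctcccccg
Plk2: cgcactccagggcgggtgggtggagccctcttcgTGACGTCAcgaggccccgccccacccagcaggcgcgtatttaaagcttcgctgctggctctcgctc

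The E2F letters were found in 6 of the 21 S, G2 and M phase promoters (28.6%), namely Mcm2, Mcm5, Mcm6, Mcm7, Tyms and Cdk1, compared with 1.11% of 27457 rat promoters. In Mcm6 the match runs over 12 bases because both strands match with an overlap, and in Mcm7 the E2F letters share a base with a CCAAT box. CCAAT boxes were found in 15 of these 21 promoters (71.4%) and in 34.3% of all promoters, and CHR letters in 6 of 21 (28.6%) and in 16% of all. Cdk1 held all 3 of these motifs. The full CRE was found in Plk2 and Mcm5 and in 1.7% of all promoters, and Plk3 held the shorter form at 2 positions. The shorter form was also found in 8 of the 21 S, G2 and M phase promoters (38.1%), Mcm7 among them (not in capitals above), in 13 of all 28 matched promoters (46.4%) and in 19% of all promoters, so it does not set Plk3 apart. AP-1 letters were in 0 of the 28 matched promoters and in 6.36% of all. GC boxes were found in 16 of the 21 S, G2 and M phase promoters (76.2%), in 5 of the other 7 (71.4%) and in 32.4% of all. For the GC box, a share above that of all promoters was therefore not particular to the S, G2 and M phase genes. These matches describe letters, not occupied sites.

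The labelled culture type matched its markers. Summed neuron markers (Tubb3, Snap25 and 5 others) stood at 2841 to 3718.5 TPM (a level scaled to the library and corrected for transcript length) in the 12 libraries, astrocyte markers at 1019 to 1796 TPM and oligodendrocyte precursor markers at 107 to 241 TPM. None of 8 microglial markers reached a mean of 1 TPM. The deposited values keep no read depth, so no counting interval can be given, and between 14890 and 15392 rows per library were above 0.

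All 37 measured genes had values above 0 in every library. Across the 12 libraries the highest mean TPM of each role belonged to Cdk4 (175), the kinase partner of D cyclins, Cdkn1b (72.3), which codes for the inhibitor p27, cyclin E1 gene Ccne1 (13.7), Pcna (144), the sliding clamp of the replication fork, Rrm1 (66.7), the large subunit of ribonucleotide reductase, Top2a (41.7), which untangles DNA before mitosis, and Plk2 (103). The lowest was Gins2, a subunit of the GINS complex of the replicative helicase, with a mean of 0.926 TPM. Gins2 passed the filter of at least 1 TPM in at least 3 of 6 libraries in the comparisons that include TS and in none of the others, so 36 genes were tested for EV and P3_100 against IC and 37 for TS against IC.

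Few of the cell cycle genes changed, and with all libraries used none of those that did was a gene of DNA replication or mitosis. The licensing gene Cdt1 was called in TS when IC library 2 was left out (log2 fold change 1.32 ± 0.30, FDR 0.0498). Each condition was compared with IC in limma on log2(TPM + 1), a scale on which changes of weakly expressed genes are understated, and a false discovery rate (FDR) under 0.05 over all genes tested was called a change. P3_100 raised Ccnd1, Cdk6, Cdkn1a and Plk3, 4 of 36 genes, where 3.31% of all 12788 genes tested changed and 2.82% rose. TS raised Ccnd1, Cdkn1a and Plk3, 3 of 37, where 1.97% of all genes changed and 1.68% rose. In EV no gene of the 36 reached this FDR, where 0.141% of all genes did, and 3 had an unadjusted p under 0.05 in limma (2.82% of all genes). None of the 37 fell at this FDR in any comparison with IC.

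A second criterion, an unadjusted p under 0.05 with a change of more than 1.5-fold, was met by 2 genes in EV (Ccnd1 and Cdk6, both higher), 5 in P3_100 (Cdkn2c lower in addition to the 4 above) and 4 in TS (Cdk6 in addition to the 3 above). The shares of all genes tested that met it were 2.16% in EV, 10% in P3_100 and 8.09% in TS. With 1 library left out at a time, the counts ran from 1 to 2 in EV, 4 to 8 in P3_100 and 4 to 12 in TS. Without IC library 2 they were 8 in P3_100 and 12 in TS, where 11.1% and 10.9% of all genes met the criterion. After rescaling, groups did not overlap for 3 genes in EV (Ccnd1, Cdk6 and Plk3), 5 in P3_100 (these with Cdkn1a and, lower, E2f1) and 5 in TS (Ccnd1, Cdk6, Cdkn1a, Plk2 and Plk3), beside 6.16%, 23.6% and 24% of all genes. The methods speak in general of cultures of unrelated cells, but no label ties the 3 libraries of a group to separate cultures, so the p-values measure the spread between these libraries, which may be technical.

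**Figure D1:**
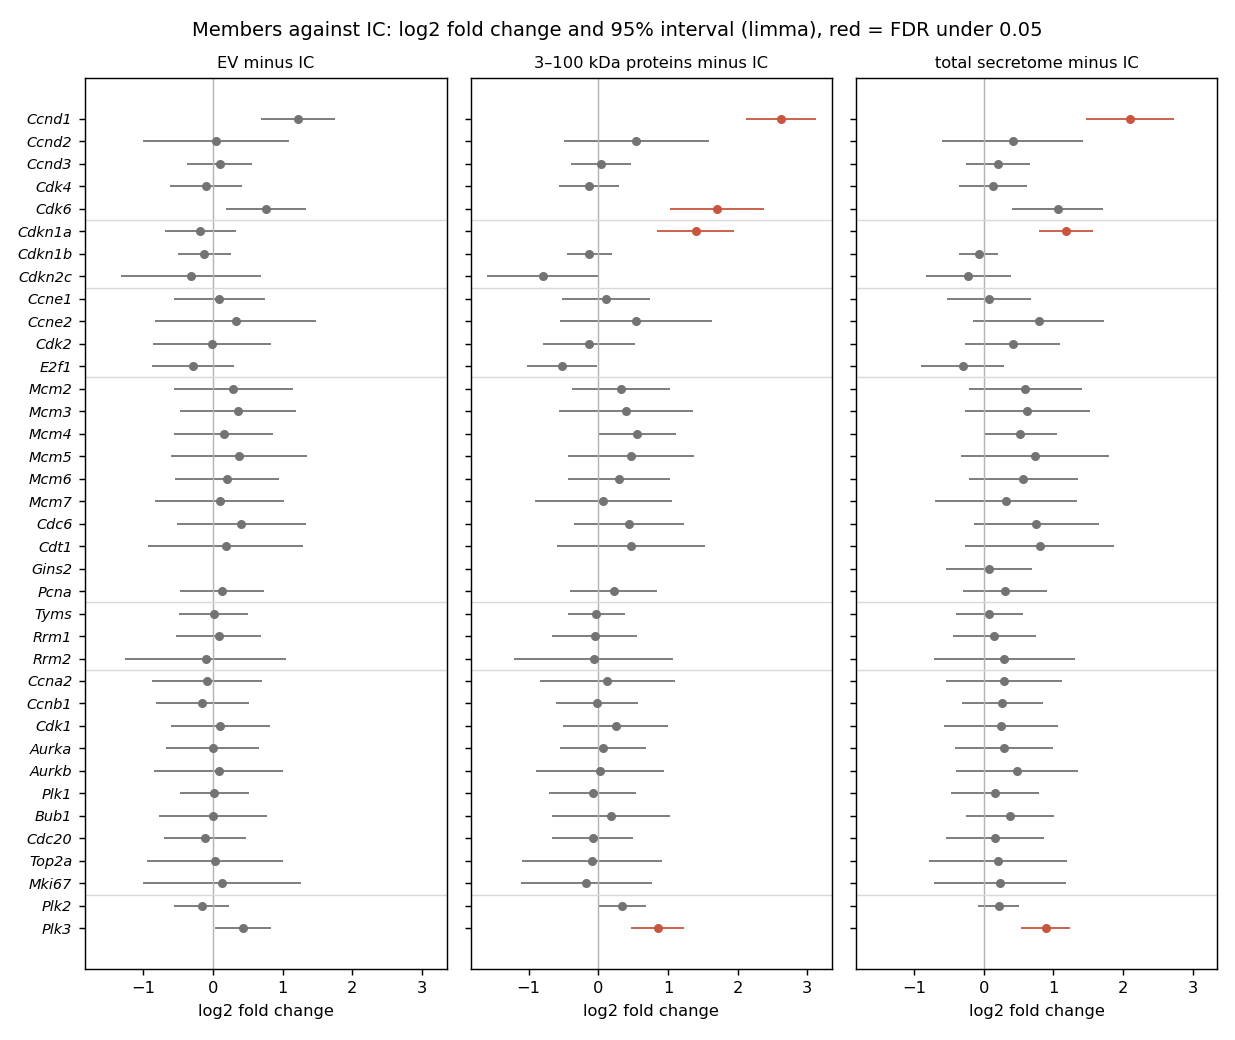
Log2 fold change of each tested gene against IC (points) with its 95% interval from limma (bars), in EV, P3_100 and TS, with genes in rows ordered by role and the horizontal lines parting the roles. Red points mark an FDR under 0.05: Ccnd1, Cdk6, Cdkn1a and Plk3 for P3_100, and Ccnd1, Cdkn1a and Plk3 for TS.

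Ccnd1, which codes for cyclin D1, the growth-factor-responsive partner of CDK4 and CDK6, had the largest log2 fold change of the list in every comparison with IC. The IC libraries held 25.9, 40.4 and 24.6 TPM, the EV libraries 60.0, 88.6 and 65.7, the P3_100 libraries 158, 211 and 182, and the TS libraries 94.6, 153 and 146. Every treated library was above all 3 IC libraries, and as deposited all P3_100 libraries were above all TS libraries. The log2 fold change was 2.62 ± 0.21 (SE) in P3_100 (FDR 0.00143), 2.10 ± 0.27 in TS (FDR 0.0117) and 1.22 ± 0.23 in EV (unadjusted p = 0.00094 in limma, FDR 0.197). The change in P3_100 held with any 1 of the 6 libraries left out (FDR 0.00054 to 0.0158). The call in TS was lost without IC library 1 (FDR 0.0619), TS library 2 (FDR 0.0855) or TS library 3 (FDR 0.0775), while the log2 fold change stayed at 1.95 to 2.37 with any 1 library left out.

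Cdk6, a kinase partner of the D cyclins, was low in all cultures and followed the same order of groups. Its IC libraries held 3.24, 3.56 and 4.05 TPM, the EV libraries 4.91, 8.28 and 7.85, the P3_100 libraries 9.05, 16.5 and 17.2, and the TS libraries 5.75, 10.0 and 10.5. Again no treated library overlapped with IC, but library 1 of each treated group lay well below the other two. Cdk6 rose in P3_100 by a log2 fold change of 1.70 ± 0.29 (FDR 0.0250), and the values were 1.06 ± 0.28 in TS (FDR 0.119) and 0.76 ± 0.24 in EV (unadjusted p = 0.0158 in limma, FDR 0.9998). The call in P3_100 was lost without IC library 1 (FDR 0.113), IC library 3 (FDR 0.0532), P3_100 library 2 (FDR 0.140) or P3_100 library 3 (FDR 0.130), with log2 fold changes of 1.5 to 2.01 over the 6 libraries left out in turn.

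The other D-type cyclins and CDK4 did not pass the test. Ccnd2 ranged from 33.3 to 94.4 TPM within IC alone and reached 117 TPM in P3_100, with log2 fold changes of 0.04 in EV, 0.55 in P3_100 and 0.42 in TS. Ccnd3 stayed between 9.84 and 15.8 TPM in all 12 libraries, and its largest log2 fold change was 0.20, in TS. Cdk4, which had the highest mean of the list over the 12 libraries (in P3_100 the mean of Ccnd1 was higher), lay between 133 and 236 TPM and differed from IC by log2 fold changes of -0.10, -0.13 and 0.13 in EV, P3_100 and TS.

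**Figure D2:**
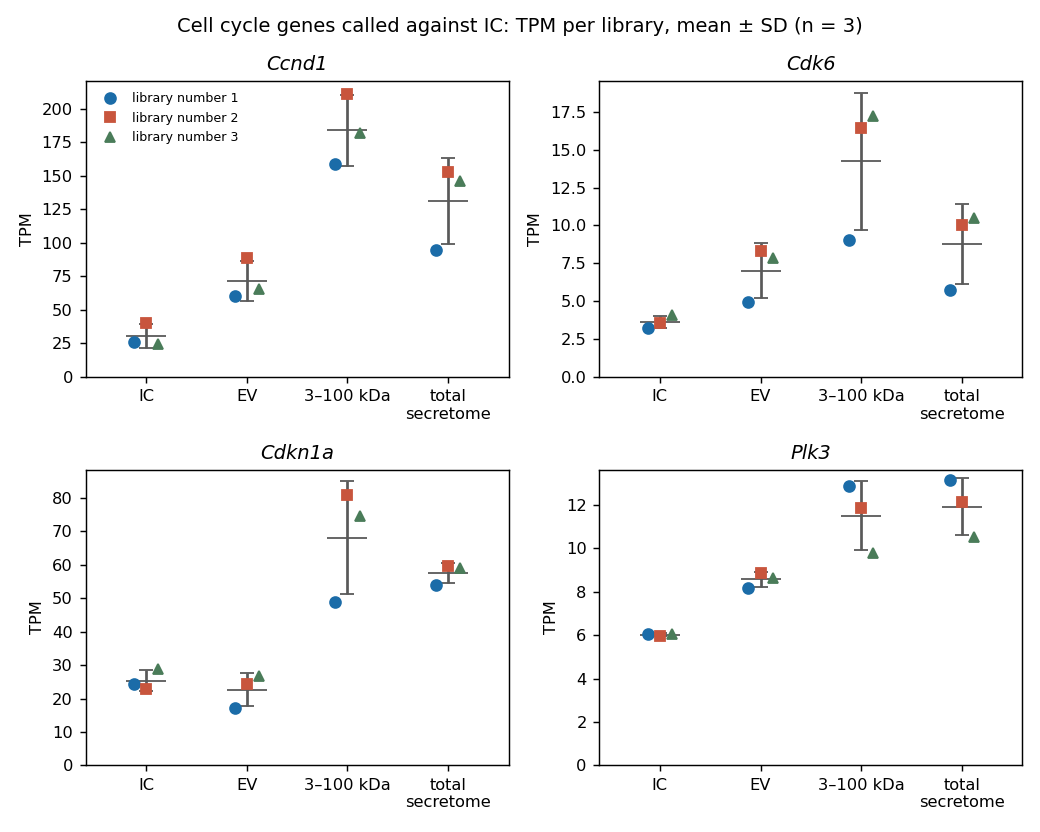
TPM of Ccnd1, Cdk6, Cdkn1a and Plk3 in each library, by condition, with the mean (horizontal bar) and SD (vertical bar, n = 3) and a symbol for each library number. Mean Ccnd1 was 30.3 TPM in IC, 71.4 in EV, 184 in P3_100 and 131 in TS, while 2 of the 3 EV values of Cdkn1a lie within the range of IC and 1 lies below it.

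Of the 3 CDK inhibitors, Cdkn1a alone changed. Cdkn1a codes for p21, which stops CDK2 and is induced by p53 and by other stress and growth signals. The IC libraries held 24.3, 22.8 and 28.9 TPM, the EV libraries 17.2, 24.3 and 26.6, the P3_100 libraries 49.0, 80.9 and 74.6, and the TS libraries 53.9, 59.5 and 59.1. EV overlapped with IC, and all P3_100 and TS libraries were above every IC and EV library. Cdkn1a rose by a log2 fold change of 1.40 ± 0.24 in P3_100 (FDR 0.0250) and 1.18 ± 0.17 in TS (FDR 0.0168), and differed by -0.18 ± 0.22 in EV (FDR 0.9998).

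With 1 library left out at a time the log2 fold change of Cdkn1a stayed at 1.26 to 1.65 in P3_100 and 1.09 to 1.32 in TS, but some calls were lost. In P3_100 the FDR of Cdkn1a was 0.114 without IC library 1, 0.140 without P3_100 library 2 and 0.138 without P3_100 library 3. In TS it was 0.0937 without IC library 1, 0.113 without TS library 2 and 0.114 without TS library 3.

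Cdkn1b and Cdkn2c, which code for the inhibitors p27 and p18, were not raised. Cdkn1b lay between 59.3 and 89.4 TPM over the 12 libraries, with log2 fold changes of -0.12 in EV, -0.13 in P3_100 and -0.07 in TS. Cdkn2c, which binds CDK4 and CDK6, held 10.2, 13.5 and 7.15 TPM in IC, 3.23, 9.05 and 4.61 TPM in P3_100, 6.42, 10.4 and 8.56 TPM in TS and 3.50, 13.5 and 9.74 TPM in EV. All groups overlapped. Its log2 fold change in P3_100 was -0.80 ± 0.34 (unadjusted p = 0.0499 in limma, FDR 0.293), and those in EV and TS were -0.32 and -0.22.

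The polo-like kinases Plk2 and Plk3, which are induced by stress and, in neurons, by synaptic activity, differed in level, and only Plk3 was called against IC. A difference in response between Plk2 and Plk3 was not tested. Plk3 held 6.06, 5.94 and 6.07 TPM in IC, 8.17, 8.87 and 8.65 TPM in EV, 12.9, 11.9 and 9.76 TPM in P3_100 and 13.1, 12.1 and 10.5 TPM in TS. Every treated library was above IC, and all P3_100 and TS libraries were above those of EV. Plk3 rose by a log2 fold change of 0.85 ± 0.16 in P3_100 (FDR 0.0383) and 0.89 ± 0.15 in TS (FDR 0.0315), while the value in EV was 0.44 ± 0.17 (unadjusted p = 0.0370 in limma, FDR 0.9998).

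The calls of Plk3 were close to the threshold. In P3_100 the FDR was 0.0552 to 0.189 with any 1 library left out, at log2 fold changes of 0.80 to 0.90. In TS the call was kept only without IC library 2 (FDR 0.0299), and leaving out any other library gave an FDR of 0.0627 to 0.202, at log2 fold changes of 0.85 to 0.94. Plk2 was the more abundant kinase, with 105, 84.1 and 101 TPM in IC, 79.9, 81.0 and 98.9 in EV, 108, 133 and 118 in P3_100 and 116, 115 and 100 in TS. Its log2 fold changes were -0.16 ± 0.17 in EV, 0.34 ± 0.15 in P3_100 (FDR 0.300) and 0.22 ± 0.13 in TS (FDR 0.457).

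None of the S phase genes tested (16 in EV and P3_100, 17 in TS) had an FDR under 0.05 against IC. In limma 0, 2 and 0 of them had an unadjusted p under 0.05 in EV, P3_100 and TS, beside 2.82%, 17% and 16.2% of all genes. With the library number as a replicate block, a fit described below, 9 of the 17 had an unadjusted p under 0.05 in TS (18.7% of all genes), again with no FDR under 0.05. Without the block their median log2 fold change was 0.14 in EV, 0.26 in P3_100 and 0.41 in TS, where the medians of all genes tested were -0.01, -0.02 and -0.01. A log2 fold change above 0 was held by 13 of 16 S phase genes in EV, 11 of 16 in P3_100 and 16 of 17 in TS. Over all genes tested these counts were 6150 of 12749, 6067 of 12788 and 6170 of 12787. The highest values of the 17 in TS were those of Cdt1 (0.80), Ccne2 (0.79), Cdc6 (0.76) and Mcm5 (0.73), with standard errors of 0.38 to 0.46.

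At the entry to S phase, E2f1 and Ccne2 were the genes with the lowest p. E2f1, an activating E2F factor, held 13.2, 20.2 and 11.5 TPM in IC, 10.0, 10.0 and 8.94 TPM in P3_100, 10.0, 15.4 and 9.73 TPM in TS and 13.3, 13.5 and 9.23 TPM in EV. All P3_100 libraries were below those of IC, while TS and EV overlapped with IC. The log2 fold change of E2f1 was -0.52 ± 0.21 in P3_100 (FDR 0.276), -0.30 ± 0.25 in TS and -0.28 ± 0.25 in EV. Ccne2, which codes for cyclin E2, lay between 3.01 and 16.4 TPM over the 12 libraries, and its value in TS was 0.79 ± 0.40 (FDR 0.396).

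Among the genes of origin licensing and the fork, Mcm4, a helicase subunit, came nearest to the threshold. It stood at 18.9, 22.6 and 21.7 TPM in IC, 14.1, 33.3 and 28.2 in EV, 22.7, 41.3 and 31.3 in P3_100 and 23.4, 38.6 and 30.6 in TS. All TS and P3_100 libraries exceeded the highest IC library as deposited, but the margin was under 1 TPM. The log2 fold change was 0.56 ± 0.23 in P3_100 (FDR 0.280) and 0.52 ± 0.22 in TS (FDR 0.309). After rescaling the Mcm4 libraries overlapped in both comparisons. In EV the lowest p of this role was that of Cdc6 (0.41 ± 0.39). The genes for nucleotide supply, Tyms (thymidylate synthase), Rrm1 and Rrm2 (subunits of ribonucleotide reductase), gave log2 fold changes between -0.11 and 0.29 in the 3 comparisons, and the lowest FDR of this role was 0.815, for Rrm2 in TS.

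The G2 and M phase genes likewise held none with an FDR under 0.05, and 0 of the 10 had an unadjusted p under 0.05 in limma in any of the 3 comparisons. The median log2 fold change of the 10 measured genes was 0.01 in EV, 0.00 in P3_100 and 0.26 in TS. In TS all 10 lay above 0, between 0.16 and 0.48, compared with 6 in EV and 5 in P3_100. The lowest p in each comparison belonged to Ccnb1 (cyclin B1) in EV (-0.15 ± 0.28), Cdk1, the mitotic kinase, in P3_100 (0.25 ± 0.32) and Bub1, a kinase of the spindle checkpoint, in TS (0.38 ± 0.27, FDR 0.553). The proliferation marker Mki67 differed from IC by 0.13 ± 0.48 in EV, -0.17 ± 0.40 in P3_100 and 0.23 ± 0.41 in TS. The 95% interval of Mki67 in P3_100 ran from -1.11 to 0.77, so values within that interval could not be told from 0 with these libraries.

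Most of the S, G2 and M phase genes moved with the number that the labels give to a library, in all 4 conditions. Top2a held 26.4, 52.5 and 38.3 TPM in IC libraries 1, 2 and 3, 21.1, 65.9 and 41.3 in EV, 18.4, 55.3 and 40.2 in P3_100 and 24.0, 68.5 and 47.9 in TS. Rrm1 held 52.1, 82.2 and 58.9 TPM in IC, 50.8, 95.3 and 63.3 in EV, 44.5, 80.3 and 59.3 in P3_100 and 55.0, 92.3 and 66.1 in TS. In each condition library 2 was highest and library 1 lowest for both genes.

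Summed over the 17 S phase genes, the 3 libraries stood at 331, 566 and 351 TPM in IC, 328, 620 and 421 TPM in EV, 324, 588 and 453 TPM in P3_100 and 385, 696 and 476 TPM in TS. Library 2 held 1.71 to 1.89 times the S phase sum of library 1, and 1.73 to 2.19 times the G2 and M phase sum. The mean S phase sum was 519 ± 160 TPM in TS and 416 ± 130 TPM in IC (SD, n = 3), and the same-numbered libraries of TS exceeded those of IC by 54.0, 130.3 and 124.7 TPM.

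**Figure D3:**
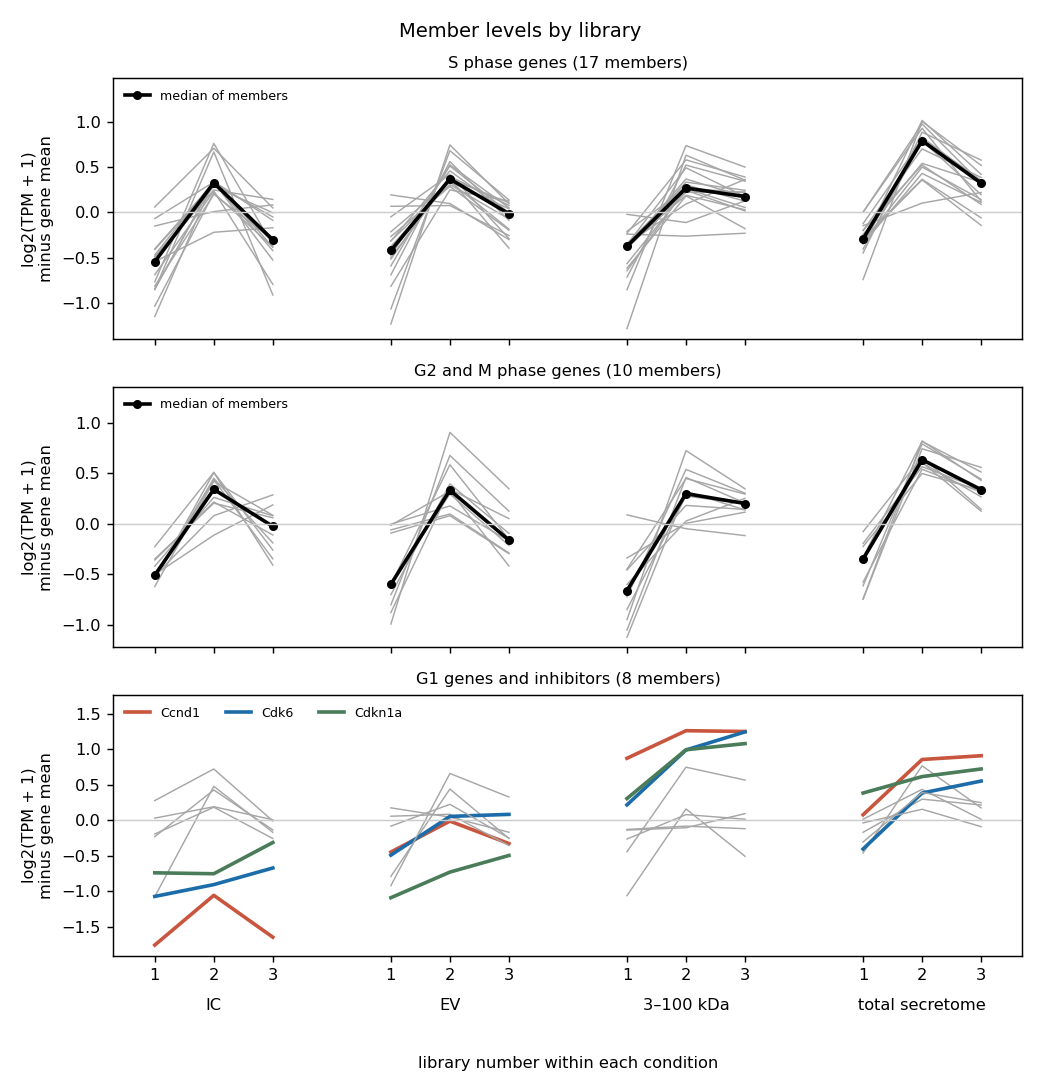
Log2(TPM + 1) of each gene minus its mean over the 12 libraries, by library number within each condition, for the S phase, the G2 and M phase and the G1 blocks. Grey lines join the values of 1 gene and black points are medians: library 2 holds the highest median S phase level in each of the 4 conditions. Ccnd1, Cdk6 and Cdkn1a, which were called against IC in these libraries, vary mainly between conditions.

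The variation over the 12 libraries was split into parts between conditions, between library numbers and the rest. For the 27 S, G2 and M phase genes the median share between numbers was 74.4% and that between conditions 12.4%. Over all 13263 genes kept in the 12 libraries these medians were 23.4% and 24.8%. The share between numbers exceeded that between conditions in 26 of the 27 genes (96.3%) and in 49.5% of all genes, and library 2 was highest in all 4 conditions for 16 of the 27 (59.3%) and for 3.14% of all genes. E2f1 was the exception among the 27, with 38% between conditions and 30.3% between numbers.

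The genes that changed with treatment showed the opposite split. The share between conditions was 97.2% for Plk3, 92.8% for Ccnd1, 88.8% for Cdkn1a, 76.4% for Cdk6 and 67.5% for Plk2, although Plk2 passed no test against IC. Top2a (93.8% between numbers) and Rrm1 (92.2%) stood at the other end. Ccnd2 sided with the S and M phase genes (81.4% between numbers and 15.4% between conditions). These are descriptions of the same 12 libraries, with no test attached. Plk3, Ccnd1, Cdkn1a and Cdk6 had been called for differences between conditions in them, so a high share between conditions partly follows from that choice.

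**Figure D4:**
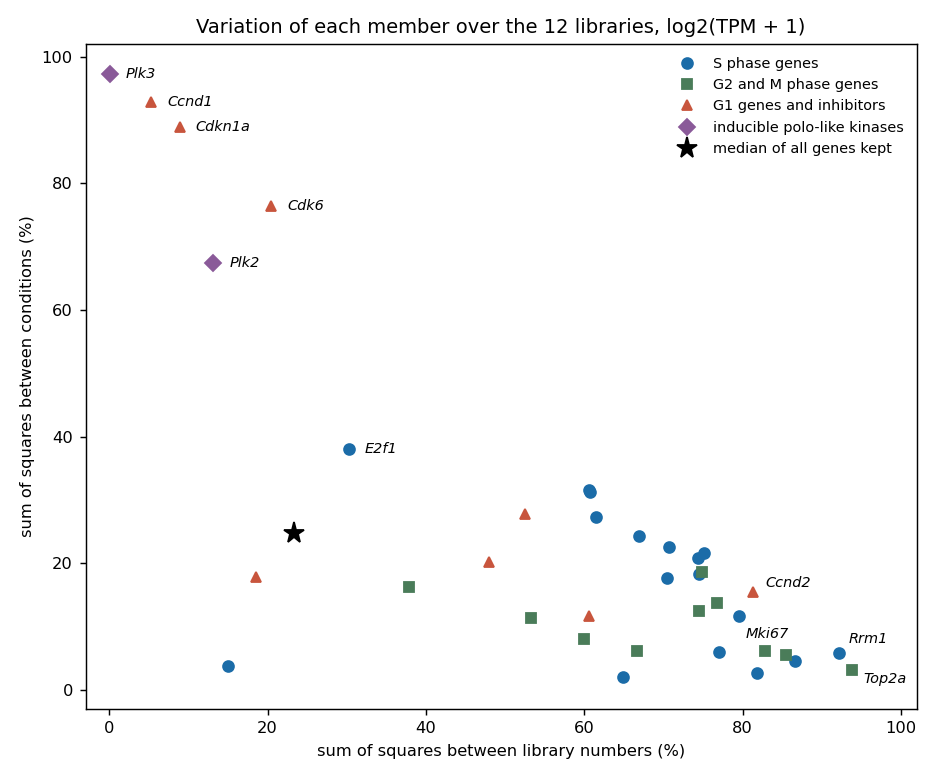
Share of each gene's sum of squares on log2(TPM + 1) that lies between library numbers (x axis, %) and between conditions (y axis, %), with a symbol for each block and a star at the median of 13263 genes. Plk3, Ccnd1, Cdkn1a, Cdk6 and Plk2 lie at the upper left, and most S, G2 and M phase genes at the lower right.

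The summed astrocyte markers were also highest in library 2 of each condition. Their sums were 1252, 1465 and 1019 TPM for IC libraries 1, 2 and 3, then 1439, 1698 and 1276 TPM for EV, 1216, 1613 and 1341 TPM for P3_100, and 1407, 1796 and 1459 TPM for TS. All 8 of these markers had a mean of at least 1 TPM. The single markers did not all follow their sum, since library 2 was highest for 3 of the 8 in IC, 3 in EV, 5 in P3_100 and 4 in TS. Without Gfap the sums in IC were 1167, 1104 and 891 TPM, with library 1 highest, while library 2 stayed highest in EV, P3_100 and TS. Summed neuron markers were highest in library 1 of each condition, which held the highest level of 3 of the 7 single markers in IC, EV and P3_100 and of 6 in TS. The part of the astrocyte content in the S, G2 and M phase levels was not tested. The supplement of the study names a day covariate for a principal component plot of IC and EV, and the sources used here do not say whether the library numbers stand for days.

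Same-numbered libraries of TS and IC deviated together over all genes. With the library number as a replicate block in the fit, the count of genes in TS that met the criterion of an unadjusted p under 0.05 and 1.5-fold went from 4 to 10, where 8.95% of all genes met it. At an unadjusted p under 0.05 alone it went from 4 to 15 of 37, beside 16.2% of all genes without the block and 18.7% with it. The 6 added by the criterion of p and fold were S phase genes: Ccne2, Mcm2, Mcm3, Mcm5, Cdc6 and Cdt1. Their log2 fold changes were 0.60 to 0.80, and their FDR in the blocked fit was 0.0803 to 0.134, so none of them was called. In that fit Ccnd1 (FDR 0.00506) and Cdkn1a (FDR 0.0129) were called, and Plk3 was not (FDR 0.0562). Without the libraries numbered 2 in both groups, an alternative chosen after seeing the data, 8 genes met the criterion (8.47% of all genes) and Ccnd1 alone kept an FDR under 0.05.

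The same-numbered libraries of TS and IC can be set side by side for the helicase genes. Mcm5 was higher in TS by 0.70, 0.54 and 0.96 in log2 for numbers 1, 2 and 3, and Mcm2 by 0.52, 0.64 and 0.64. Such a difference was not particular to TS. Centred on its mean, Mcm2 stood at -0.82, 0.20 and -0.30 in IC. Number by number it was higher in EV (-0.59, 0.53 and 0.05) and in P3_100 (-0.40, 0.22 and 0.23). Mcm5 was likewise higher in EV, but its P3_100 library 2 (0.34) lay below IC library 2 (0.35). Counts over same-numbered pairs were not made for EV or P3_100 against IC. Among the 37 genes tested, 26 (70.3%) were higher in TS in all 3 pairs, compared with 21.7% of all 12787 genes. The S phase block held 13 of 17 such genes and the G2 and M phase block 5 of 10. Outside the list the counts were 13 of 32 other replication genes (40.6%), 11 of 32 other mitotic genes (34.4%) and 12 of 19 other G1 regulators (63.2%). Since the S, G2 and M phase genes move together across libraries, they do not count as separate observations of this difference.

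Between the treatments, whose doses differed, every gene of the list that was called belonged to the G1 block. Ccnd1 was lower in EV than in P3_100 (log2 difference -1.39 ± 0.17, FDR 0.0243), the only one of 36 genes with an FDR under 0.05, where 0.534% of all genes were called and 0.495% were lower. Cdkn1a differed by -1.56 ± 0.25 (FDR 0.0616) and Cdk6 by -0.93 ± 0.31 (FDR 0.370), and with the replicate block (these libraries are also paired by number) all 3 were called, where 2.67% of all genes were (FDR 0.00401 for Ccnd1, 0.00401 for Cdkn1a and 0.0360 for Cdk6). The difference of Ccnd1 was not called without P3_100 library 2 or 3 or EV library 2 or 3, each of which left 0 genes called, and without P3_100 library 1 Cdkn1a was called too (2 genes). The log2 difference of Ccnd1 stayed at -1.52 to -1.29 with any 1 library left out. Plk2 and Plk3 differed between EV and P3_100 by -0.49 ± 0.15 (FDR 0.336) and -0.40 ± 0.15 (FDR 0.455).

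Against TS, the EV libraries were lower in Cdkn1a by a log2 difference of -1.34 ± 0.18 (FDR 0.0506) and in Ccnd1 by -0.87 ± 0.24 (FDR 0.376), with no overlap of libraries for either. Plk2 and Plk3 were lower as well, at log2 differences between -0.44 and -0.37 (lowest FDR 0.537), also with no overlap. Of all 12758 genes, 953 were lower and 885 higher without overlap. No gene of 37 was called, where 0.188% of all genes were and 4 of the 37 had an unadjusted p under 0.05 in limma (7.7% of all genes). With the replicate block 12 of the 37 had an unadjusted p under 0.05 (10% of all genes). The block brought the FDR of Cdkn1a to 0.0324, and it was then the only gene of the 37 called, where 0.157% of all genes were. Without the block, leaving out EV library 1 also gave 1 gene called between EV and TS, again Cdkn1a (FDR 0.0285). In all 3 same-numbered pairs 23 of 37 genes (62.2%) were lower in EV than in TS, compared with 16.5% of all genes, and 12 of these 23 were S phase genes.

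No gene of the 37 had an FDR under 0.05 between TS and P3_100, where 0.0157% of all genes were called. None of the 37 had an unadjusted p under 0.05 in limma, where 2.64% of all genes did, and with the replicate block 11 had (5.24% of all genes), still with no FDR under 0.05. These 11 were Ccnd1, Cdk6, Cdk4, Cdkn2c, Cdk2, Mcm6, Rrm1, Rrm2, Aurkb, Top2a and Mki67, of which Ccnd1 and Cdk6 were lower in TS and the other 9 higher. The largest difference was that of Cdk6, lower in TS by -0.63 (95% interval -1.40 to 0.14), and Ccnd1 differed by -0.51 (-1.03 to 0.02). In the fit with the replicate block the intervals were narrower, at -0.92 to -0.35 for Cdk6 (FDR 0.378) and -0.78 to -0.24 for Ccnd1 (FDR 0.508), and neither was called. Without the block, for Cdkn1a the interval was -0.69 to 0.27 and for Plk3 -0.26 to 0.36. In all 3 same-numbered pairs 17 of the 37 genes (45.9%) were higher in TS than in P3_100, compared with 13.4% of all genes, among them 9 of 17 S phase and 6 of 10 G2 and M phase genes, and so were 21 of 32 other mitotic genes (65.6%) and 11 of 32 other replication genes (34.4%). The order of mean Ccnd1 levels was therefore IC, EV, TS and P3_100, in which no pair of neighbours was separated at this FDR, while IC differed from TS and P3_100, and EV from P3_100.

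Genes of the same pathways outside the list gave a similar picture. Of 32 other replication genes and 32 other mitotic genes, none had an FDR under 0.05 against IC in EV, P3_100 or TS with all libraries used. Their unadjusted p was under 0.05 in limma for 0 replication genes in each comparison and for 0, 2 and 3 mitotic genes in EV, P3_100 and TS, beside 2.82%, 17% and 16.2% of all genes. The lowest p of the replication list belonged to Orc1, a subunit of the origin recognition complex, in EV (0.37 ± 0.32) and P3_100 (0.70 ± 0.32, FDR 0.322), followed by Orc6 in EV (0.25 ± 0.26) and the kinase gene Cdc7 in P3_100 (0.32 ± 0.17), and in TS to Dbf4, which activates CDC7 (0.56 ± 0.27, FDR 0.364), and the exonuclease gene Exo1 (0.64 ± 0.34). The median log2 fold changes in TS were 0.24 and 0.18. Their levels also lay mainly between library numbers, with median shares of 61.1% and 71.1%. The mitotic kinesin gene Kif23 had the lowest p of the mitotic list in P3_100 (0.83 ± 0.27, FDR 0.162) and in TS (0.96 ± 0.26, FDR 0.124), and it was called in P3_100 without P3_100 library 1 (FDR 0.0335). Next came the phosphatase gene Cdc25b in P3_100 (-0.57 ± 0.18, FDR 0.167) and the anillin gene Anln in TS (0.71 ± 0.24, FDR 0.206), while in EV the lowest p belonged to Cdc25c (-0.32 ± 0.25) and Anln (0.36 ± 0.32).

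Among other regulators of G1, E2f5 rose in TS and Cdkn2b was listed above 0 in treated cultures alone. Cdkn2b, which codes for the CDK4 and CDK6 inhibitor p15, was listed at 0 in all 3 IC libraries, at 0.588, 1.23 and 1.55 TPM in EV, 1.64, 4.12 and 3.95 TPM in P3_100 and 2.02, 1.92 and 3.30 TPM in TS. Cdkn2b passed the filter on low values only through the P3_100 or TS libraries in which it was high, so no test of it is given, and no fold is given against the listed zeros, since the ribosomal protein gene Rps6 is also listed at 0 in all 12 libraries. E2f5, a repressive E2F factor, held 13.7, 11.4 and 10.7 TPM in IC and 20.5, 24.1 and 21.2 TPM in TS, with no overlap. Its P3_100 libraries, at 16.6, 26.5 and 16.7 TPM, also lay above every IC library as deposited, while those of EV (11.6, 14.4 and 16.7 TPM) overlapped with IC. E2f5 rose in TS by 0.85 ± 0.15 (FDR 0.0352), a call that was lost with the replicate block (FDR 0.0607) and with any 1 library left out other than IC library 2 (FDR 0.0713 to 0.228). In EV, Cdk7 (0.24) and E2f6 (0.29) had the lowest p.

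The rise of Cdkn1a was set beside 15 other genes known as targets of p53. Pmaip1, which codes for the death-promoting protein NOXA, rose in P3_100 by 1.71 ± 0.23 (FDR 0.0103), from 2.25, 1.03 and 1.99 TPM in IC to 7.62, 8.14 and 7.32 TPM. In TS its libraries held 6.92, 3.61 and 3.95 TPM, above every IC library as deposited, but Pmaip1 was not called there. Ddit4, an inhibitor of mTORC1 signalling, fell by 1.60 in log2 in P3_100 (FDR 0.0127) and by 1.26 in TS (FDR 0.0175). Sesn1, a stress-responsive sestrin, fell by 0.80 in P3_100 (FDR 0.0457) and by 0.85 in TS (FDR 0.0283). In P3_100 1 gene of this list thus rose and 2 fell (3 of 15, beside 3.31% of all genes), and in TS none rose and 2 fell (2 of 15, beside 1.97%). The call of Sesn1 was lost in P3_100 with any 1 library left out and with the replicate block (FDR 0.151), and was kept in TS only without IC library 2. That of Pmaip1 was lost without P3_100 library 2 or 3, and that of Ddit4 without IC library 1 or P3_100 library 3 in P3_100 and without IC library 1, TS library 2 or TS library 3 in TS. The median of the 15 was -0.11 in P3_100 and -0.02 in TS.

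In EV none of the 15 had an FDR under 0.05 (0.141% of all genes did) and 2 had an unadjusted p under 0.05 in limma (2.82% of all genes). These were Btg2, an antiproliferative gene (-0.94 ± 0.28, FDR 0.976), and Ddit4 (-0.59 ± 0.19, FDR 0.9998), both below IC in every EV library after rescaling, although as deposited 1 EV library of Ddit4 (47.4 TPM) exceeded the lowest IC library (46.2 TPM).

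Of the marker genes of precursor cells, which are among the cells that divide, none reached the FDR threshold in P3_100 when its libraries were fitted with those of IC alone. Summed oligodendrocyte precursor markers stood at 107 to 172 TPM in P3_100 and 175 to 220 TPM in IC, and 3 of the 6 markers met the criterion of an unadjusted p under 0.05 and 1.5-fold, all lower, beside 10% of all genes (3.39% lower). Of 4 neural progenitor markers tested, 2 met it, both lower (lowest FDR 0.0741, for Hes5), and the summed levels of the list overlapped, at 310 to 432 TPM in P3_100 and 321 to 505 TPM in IC. In EV and TS, 0 of the 6 oligodendrocyte precursor markers and 1 of the 4 neural progenitor markers met it, which was Hes5, lower by a log2 fold change of -0.89 ± 0.26 in EV (FDR 0.954) and -1.13 ± 0.28 in TS (FDR 0.105) with no overlap with IC. Of the 8 astrocyte markers, Gfap met it in EV (1.58 ± 0.51, FDR 0.9998) and in TS (1.40 ± 0.55, FDR 0.269), and none did in P3_100. Gfap held 85.1, 361 and 128 TPM in IC, 491, 617 and 362 TPM in EV and 271, 636 and 408 TPM in TS, so EV lay above IC and TS overlapped with it. In TS Gfap was called with the replicate block (FDR 0.0256) and without IC library 2 (FDR 0.0360), and Hes5 was called in P3_100 with all 12 libraries in 1 fit (FDR 0.0207). No marker of these lists was at 0 in every library. Of the 3 P3_100 libraries, 1 had an S phase sum within the range of IC (331 to 566 TPM), 1 lay below it (324 TPM) and 1 above (588 TPM). The part of these markers in the levels of the cell cycle genes was not tested.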

How the data were processed

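RNA of rat primary cortical neuroglial cultures was sequenced in 12 libraries, 3 for each of 4 conditions, which were grouped by the treatment in the labels. The authors used Trimmomatic and Cutadapt for trimming, Salmon for quantification on Ensembl transcripts of the rat build rn6 (genome sequence as decoy), and tximport for values per gene. The labels name a strand-specific DNBSEQ mRNA library, and the methods name another kit and instrument. The deposited values name no unit. They are not whole and add up to 1000000 in every library, so they were read as TPM. TPM keeps no depth, so no counting interval was computed and the count test of the study could not be used.

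Rows of one name were summed and TPM was rescaled by median-of-ratios factors (0.909 to 1.08 over the 12 libraries) within the 6 libraries of a comparison. Genes were kept if 3 or more of these reached 1 TPM, and log2(TPM + 1) was fitted in R 4.3.3 by limma 3.58.1 (lmFit, eBayes with trend). The p-values were adjusted after Benjamini and Hochberg over all genes tested. The script was tested on simulated data. Levels are deposited TPM, and errors of fold changes are standard errors. The 13263 genes used for the split of variation passed the same filter over 12 libraries. Same-numbered libraries were read as paired where their deviations from the group means, over all genes tested, correlated at over 0.1 in every pair. This held for TS and IC (0.247, 0.161 and 0.158) and between the treated groups (0.186 to 0.59), and not for EV and IC (-0.082, -0.181 and 0.542) or P3_100 and IC (-0.007, -0.251 and 0.254).

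All measured genes of the list are accounted for by role. Those with an FDR under 0.05, or an unadjusted p under 0.05 and 1.5-fold, are given with statistics, and otherwise the gene of lowest p in a role. From the lists of other cell cycle genes and p53 targets, genes with an FDR under 0.05 are named, or else the 2 of lowest p. Marker lists are given by their sums. The members and lists were chosen with earlier results of these data known, and 1 gene of the neural progenitor markers is not reported here. Promoters came from a RefSeq table (GRCr8). The alternatives were a pseudocount of 0.1, no filter, a filter of 5 TPM, no rescaling, a fit of all 12 libraries, the replicate block and each library left out.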

Additional observations from a re-analysis of the deposited data

How the results depend on the processing

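Of 1067 alternative values of the log2 fold changes given with a value, 959 kept their direction and their side of the FDR threshold, 75 no longer passed it, 14 newly passed it and 19 changed sign. The values that changed sign had no FDR under 0.05. With 1 library left out at a time they ran in EV from -0.39 to 0.063 for Ccnb1, -0.36 to 0.41 for Ccnd2, -0.64 to 0.16 for Cdkn2c, -0.22 to 0.10 for Cdk4 and -0.28 to 0.67 for Mki67, in P3_100 from -0.25 to 0.075 for Cdk4 and -0.44 to 0.29 for Mki67, and in TS from -0.0087 to 0.33 for Cdk4, -0.048 to 0.70 for Mki67 and -0.081 to 0.80 for Rrm2. Without the libraries numbered 2, Mki67 in EV was -0.23, and Cdk4 was 0.016 in EV and 0.063 in P3_100. Of the counts of called genes, 84 of 117 alternative counts stayed within 1.5 times the count reported. The cause of the moved counts was not tested. From deposited TPM without rescaling, Plk3 was no longer called in P3_100 (FDR 0.0748) or TS (FDR 0.0544), nor were E2f5 in TS (FDR 0.0544) and Sesn1 in P3_100 (FDR 0.0505). With all 12 libraries in 1 fit, 2 genes were called between EV and P3_100 and 1 between EV and TS, and the same counts of 2 and 1 came from deposited TPM without rescaling. No filter left 2 genes called in P3_100 against IC, where Cdk6 (FDR 0.0507) and Plk3 (FDR 0.0679) were lost, as were Sesn1 in P3_100 (FDR 0.0688) and, in TS, Plk3 (FDR 0.0587) and E2f5 (FDR 0.0561), and a filter of 5 TPM left 1 gene at an unadjusted p under 0.05 and 1.5-fold in EV.

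With the replicate block, the counts were 10 genes at an unadjusted p under 0.05 and 1.5-fold in TS, 3 genes called between EV and P3_100 and 1 between EV and TS. By the correlation over all genes, the numbers did not pair the libraries of EV or P3_100 with those of IC. Most S, G2 and M phase genes followed the numbers in these groups as well. The replicate block gave 0 called genes in EV against IC and 3 in P3_100 against IC (Plk3 at an FDR of 0.147), with Sesn1 in P3_100 also lost. Among the fold changes recomputed it changed no other call beyond those stated. Without the libraries numbered 2, chosen after seeing the data, 1 gene was called in P3_100, 1 in TS and 0 between EV and P3_100. The criterion of p and fold was then met by 1 gene in EV (1.84% of all genes) and 8 in TS (8.47%).

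With 1 library left out at a time, the called genes numbered 0 in EV, 1 to 3 in P3_100 (1 without IC library 1, P3_100 library 2 or P3_100 library 3, and 2 without IC library 3), 0 to 4 in TS, 0 to 2 between EV and P3_100, 0 to 1 between EV and TS and 0 between TS and P3_100. The 4 in TS came without IC library 2, where 809 of 12614 genes were called. The genes at an unadjusted p under 0.05 and 1.5-fold numbered 1 to 2 in EV (1 without IC library 1, EV library 2 or EV library 3), 4 to 8 in P3_100 (8 without IC library 2) and 4 to 12 in TS (12 without IC library 2 and 12 without TS library 1). Beside the counts of 8, 12 and 12, the shares of all genes were 11.1%, 10.9% and 9.11%. No member was called in TS without IC library 1, TS library 2 or TS library 3. With 3 libraries a group and unknown depth, small changes of the S, G2 and M phase genes may have gone undetected, which was not tested.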
